A study of Homo sapiens with 6 samples.

Results

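In A172 cells, a human glioblastoma line, 19 of the 20514 rows of the deposited RNA-seq table were read after an siRNA against ADAR1 and nearly unread with a control siRNA. Members were chosen by reads alone, with at least 50 in each siADAR1 library and at most 10 in each siControl library. The groups compared were siADAR1 and siStaufen1 together (called the combined knockdown), siADAR1 alone, and siControl, with 2 libraries each, replicates a and b. The treatment text, which is shared by all 6 libraries, describes a plasmid for HA-tagged STAU1 transfected a day after siControl or siADAR1 and leaves out the Staufen1 siRNA. By the titles, no group among the 6 libraries had that siRNA alone, and nothing in the labels ties a replicate to a separate culture. The p-values therefore measure only the spread between these libraries, which may be technical.

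ADAR1 edits double-stranded RNA by turning adenosines into inosines, and loss of that editing is known to leave more RNA duplexes that innate immune sensors can bind. Staufen1 binds double-stranded stretches in the 3′ untranslated parts of mRNAs and can recruit the decay factor UPF1, a route known as Staufen-mediated decay. Both proteins can occupy the same kind of structure, and the series is titled as a study of ADAR1, apoptosis of stressed cells and this decay route.

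A row of the table stands for a set of UCSC hg19 transcript IDs and carries no gene name. The 19 rows hold 46 transcript IDs, and 0 of these are among the synonyms in the RefSeq gene table of GRCh38.p14, which names 5 of the 65739 IDs in the table. No gene name, function or sequence is therefore given for any member, and the level of the siRNA targets and of cell type markers was not analysed here. Members are called by their rank in siADAR1 level, and 4 also by the first ID of their row. Row lengths are not used, so the ranks order reads, not transcripts per cell.

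Library totals ran from 20291057 to 29508632 estimated reads, with the smallest in siControl replicate a, and both siControl libraries had the lowest scaling factors. A limit of 50 reads was 1.80 and 1.55 CPM (reads scaled to library size with TMM factors) in siADAR1 replicates a and b. Likewise, 10 reads were 0.556 and 0.448 CPM in siControl replicates a and b. The distance that the rule demands is thus smaller in CPM than in reads. In bulk RNA, more cells expressing a gene and more RNA per cell cannot be told apart.

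Switching on to this degree was uncommon among rows that siControl cells barely expressed. Of the 20514 rows, 6393 (31.2%) had at most 10 reads in each siControl library, and the 19 members are 0.297% of those. In the combined knockdown 5712 of the near-silent rows (89.4%) still had at most 10 reads in both libraries and 318 (4.97%) had more than 10 in both. With siADAR1, 5575 of the same rows (87.2%) had at most 10 reads in both libraries and 431 (6.74%) had more than 10 in both. At least 100 reads in both libraries were reached by 1 row in the combined knockdown and by 5 rows in siADAR1. At least 50 reads in both combined libraries were reached by 4 rows, and all 4 are members. With the groups of the rule exchanged, 2 rows met it as switched off. They had at most 10 reads in each siADAR1 library and 50 or more in each siControl library. The exchanged rule demands a larger distance in CPM, so the counts of 2 and 19 are not like for like. For it, 50 reads were 2.78 and 2.24 CPM in siControl replicates a and b, and 10 reads were 0.36 and 0.31 CPM in siADAR1.

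**Figure D1:**
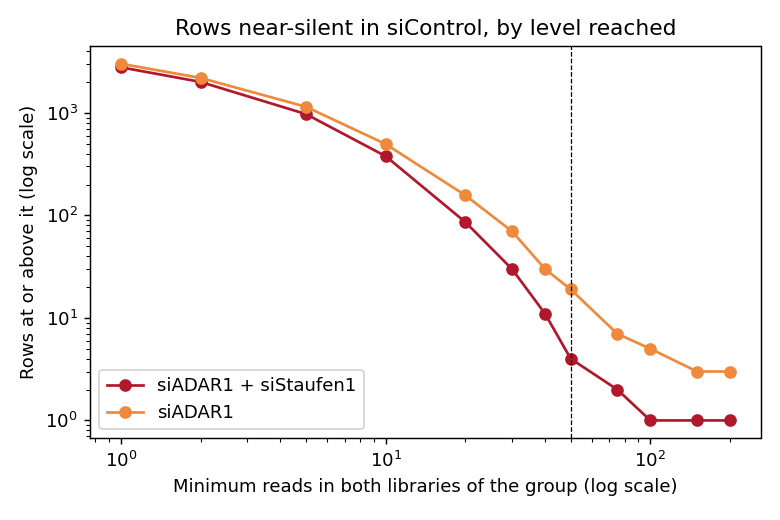
Rows with at most 10 reads in each siControl library, counted by the reads they reached in both libraries of the combined knockdown (red) and of siADAR1 (orange); both axes are logarithmic and the dashed line marks 50 reads. At 1 read the counts are 2782 rows in the combined knockdown and 3012 in siADAR1, and at 50 reads they are 4 rows in the combined knockdown and 19 in siADAR1, the members themselves.

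The level reached was low for most members. Mean siADAR1 levels ran from 1.81 to 8.70 CPM with a median of 2.37 CPM, and 79.0% of the 14711 rows tested had a higher siADAR1 mean than that median. Between 1.81 and 2.90 CPM lay 14 members, and 5 were above 4 CPM. The 4 highest members supplied 43.6% of the summed siADAR1 level of all 19. In siControl, 17 members had at least 1 read in both libraries, 2 had 0 reads in replicate a only, and 0 members had no read in both, so these rows were nearly silent rather than unread.

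The highest member was uc010yrj.2, a row of 2 transcripts. It had 227 and 285 reads in the combined knockdown, 209 and 319 reads in siADAR1 and 2 reads in each siControl library. Both knockdown groups lay far above siControl and overlapped each other. Its level was 9.54 ± 0.66 CPM in the combined knockdown, 8.70 ± 1.6 CPM in siADAR1 and 0.100 ± 0.015 CPM in siControl (SD, n = 2 each).

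The next member was uc002swc.3, a row of 4 transcripts, with 21 and 41 reads in the combined knockdown, 224 and 218 reads in siADAR1 and 1 and 2 reads in siControl. The 3 groups did not overlap, and the combined knockdown lay between the others. Its levels were 1.14 ± 0.42 CPM in the combined knockdown, 7.41 ± 0.95 CPM in siADAR1 and 0.0726 ± 0.024 CPM in siControl (SD, n = 2 each).

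Ranks 3 to 5 were also above 4 CPM with siADAR1. Rank 3, a row of 4 transcripts, had 75 and 102 reads in the combined knockdown, 221 and 218 in siADAR1 and 5 and 9 in siControl. Rank 4, again of 4 transcripts, had 21 and 25 reads in the combined knockdown, 128 and 166 in siADAR1 and 0 and 4 in siControl. Rank 5, a row of 1 transcript, had 25 and 20 reads in the combined knockdown, 112 and 132 in siADAR1 and 8 and 7 in siControl. In all 3 rows both combined libraries lay below both siADAR1 libraries and above both siControl libraries.

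The members at the foot of the order sat close to the limit of 50 reads. Rank 19, a row of 2 transcripts, had 30 and 18 reads in the combined knockdown, 54 reads in each siADAR1 library and 5 and 3 in siControl. The row just outside on this side had 49 and 68 siADAR1 reads and 5 and 8 siControl reads, and 7 near-silent rows had 45 to 49 reads in their lower siADAR1 library. On the siControl side, 3 members had 10 reads in one library, and the nearest rows outside had 4 and 11 reads. Allowing 11 to 20 siControl reads in the higher library would have added 91 rows. The membership therefore follows the chosen limits and does not mark a gap in the data.

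**Figure D2:**
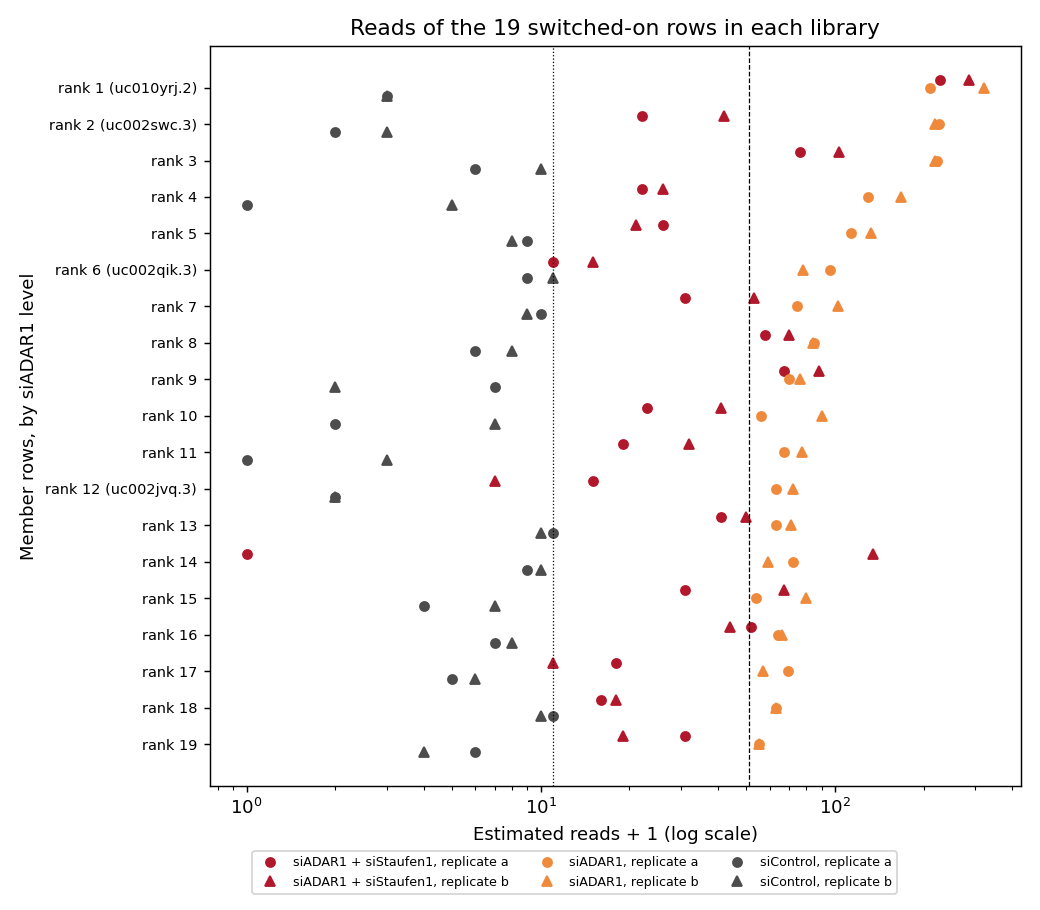
Estimated reads plus 1 (log axis) of each of the 19 members in the 6 libraries, with the combined knockdown in red, siADAR1 in orange and siControl in grey; circles are replicate a and triangles replicate b. The dotted and dashed lines mark 10 and 50 reads. Combined knockdown points spread from the siControl side to the siADAR1 side, and rank 14 has 0 reads in one combined library and 134 in the other.

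Most members were rows of few transcripts, a property the rule did not use. Of the 19, 8 rows (42.1%) hold 1 transcript ID, 4 hold 2, 1 holds 3, 4 hold 4, and 2 hold 5 or more, with a median of 2 and a maximum of 6. Among the 6393 near-silent rows 52.7% hold 1 transcript and the median is 1, and among all 20514 rows 32.1% do and the median is 2. Among the 14711 tested rows, 23.6% hold 1 transcript and the median is 3. The share of rows with exactly 4 transcripts was 21.1% of the members (4 rows), 6.80% of the near-silent rows and 12.9% of the tested rows. With 19 rows these shares are given as a description.

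**Figure D3:**
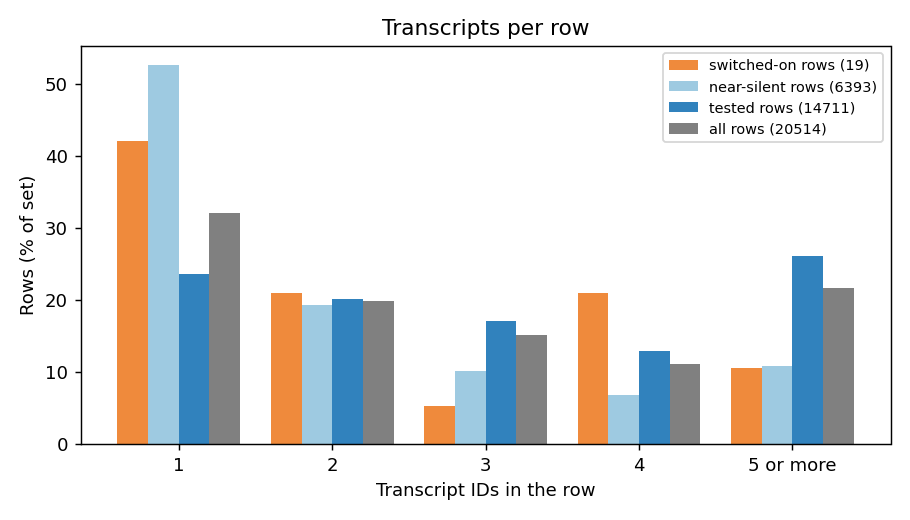
Percent of rows by number of transcript IDs for the 19 switched-on rows (orange), the near-silent rows of siControl (light blue), all tested rows (dark blue) and the whole table (grey). The switched-on rows with 1 transcript (42.1%) lie between the near-silent rows (52.7%) and the tested rows (23.6%).

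The combined libraries were not used to choose the members and show how many stayed on when the Staufen1 siRNA was added. The limit of 50 reads is however that of the rule. With siADAR1, 11 members had only 50 to 69 reads in their lower library, so a small fall takes them below it. At least 50 reads in both combined libraries were found for 4 of the 19 members, ranks 1, 3, 8 and 9. Another 4 reached 50 reads in 1 of the combined libraries and 11 in neither. Above 10 reads in both were 15 members, and 4 had at most 10 in one of them. None of the 19 (0) had at most 10 reads in both combined libraries, so no member met that read limit again in both replicates. In CPM the limit was lower there (0.400 and 0.351 in replicates a and b) than in siControl (0.556 and 0.448). Rank 6 had 0.400 and 0.492 CPM in the combined libraries, on either side of its siControl level of 0.445 and 0.448 CPM.

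Besides rank 1 and rank 3, the members that stayed on were moderate ones. Rank 8, a row of 6 transcripts, had 57 and 69 reads in the combined knockdown, 84 and 83 in siADAR1 and 5 and 7 in siControl. Rank 9, a row of 1 transcript, had 66 and 87 reads in the combined knockdown, 69 and 75 in siADAR1 and 6 and 1 in siControl. For rank 9 the reads of the knockdown groups overlapped, although in CPM both combined libraries were above both siADAR1 libraries. For rank 8 both combined libraries were below both siADAR1 libraries.

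In the combined knockdown, 15 of the 19 members were higher than in siControl (edgeR quasi-likelihood test, Benjamini-Hochberg adjusted p under 0.05 over all rows tested), against 28.7% of the tested rows. Their log2 fold changes ran from 1.17 to 6.52, with adjusted p-values of 2.70e-08 to 0.0284. The median over the 19 was 2.70 on the log2 scale, and over all tested rows 0.03. Both combined libraries lay above both siControl libraries in 17 members, as they did in 39.8% of the tested rows. The siControl libraries were chosen here for low reads, so this comparison is not free of the rule. All 19 members passed the filter on low counts with the 6 libraries together, and 16 also passed it without the siADAR1 libraries. Ranks 12, 14 and 17 passed only with the siADAR1 libraries, in which they are high by the rule.

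The largest log2 fold change of the members in that comparison was that of uc010yrj.2, at 6.52 (SE 0.34, edgeR adjusted p = 2.70e-08). For uc002swc.3 it was 3.87 (SE 0.59, edgeR adjusted p = 1.61e-04). Both were higher in 2 of 2 combined libraries. The 4 members that were not called were ranks 6, 14, 17 and 18, with log2 fold changes of 0.00, 2.51, 1.17 and 0.33 and SEs of 0.47, 1.1, 0.59 and 0.43. The call of rank 5, at 1.17 (SE 0.40), was lost with DESeq2, with only the 4 libraries compared, and without combined replicate a, siADAR1 replicate b or siControl replicate b. The call of rank 19, at 2.16 (SE 0.56), was lost without combined replicate a or siControl replicate b.

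Against siADAR1, the same edgeR fit called 12 of the 19 members lower in the combined knockdown, and 21.5% of the tested rows. Ranks 12 and 17 are among these lower calls. They passed the filter on low counts only with the siADAR1 libraries, in which they are high by the rule. Higher calls numbered 0 among the members and 21.7% of the tested rows; 0 members had a positive change at an unadjusted p under 0.05, and DESeq2 called 0. The median log2 fold change over the 19 was -1.04, and over all tested rows 0.00. Both combined libraries were below both siADAR1 libraries in 14 members, as in 37.4% of the tested rows. These siADAR1 libraries are the ones the members were chosen on for high reads, and the part of that choice in the lower combined levels was not tested.

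The change against siADAR1 was uneven across members. The combined knockdown mean in CPM, expressed as a percent of the siADAR1 mean, ran from 15.4% to 119% with a median of 48.3%. The 12 members called lower kept 15.4% to 52.6%, with log2 fold changes of -2.68 to -0.92 and adjusted p-values of 3.93e-06 to 0.0459 by the edgeR test. The other 7 kept 75.5% to 119%, with log2 fold changes of -0.40 to 0.25 and adjusted p-values of 0.215 to 0.889, which does not show that they were unchanged. Rank 14 is among these 7, and its 108% averages combined libraries of 0 and 134 reads. No member lay between 52.6% and 75.5%. Of the 12 lower calls, 8 held under all 12 alternatives tried, and those of ranks 7, 10, 11 and 19 were lost under 1 to 4 of them.

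Among the strongest falls was uc002qik.3, a row of 3 transcripts and rank 6. It had 10 and 14 reads in the combined knockdown, 95 and 77 in siADAR1 and 8 and 10 in siControl. Its combined libraries overlapped siControl and lay well below siADAR1. The log2 fold change against siADAR1 was -2.68 (SE 0.33, edgeR adjusted p = 5.82e-05), lower in 2 of 2 libraries. Against siControl the change was 0.00 (SE 0.47, edgeR adjusted p = 0.996), and its sign varied with the scaling.

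A similar fall was measured for uc002swc.3, at -2.67 (SE 0.24, edgeR adjusted p = 3.93e-06) against siADAR1. The row uc002jvq.3, of 4 transcripts and rank 12, had 14 and 6 reads in the combined knockdown, 62 and 71 in siADAR1 and 1 read in each siControl library. Its combined libraries lay between the other groups without overlap. It changed by -2.54 (SE 0.41, edgeR adjusted p = 3.58e-04) against siADAR1. On 2 siControl reads the ratio of the combined knockdown to siControl was 7.53, with an exact 95% interval of 1.83 to 66.5 for counting error. Its call against siControl, at 2.81 (SE 0.86, edgeR adjusted p = 0.0159), was lost when combined replicate a (1.98) or siControl replicate b (2.64) was left out. Without the siADAR1 libraries the row did not pass the filter on low counts, so that call exists only in fits that include them.

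**Figure D4:**
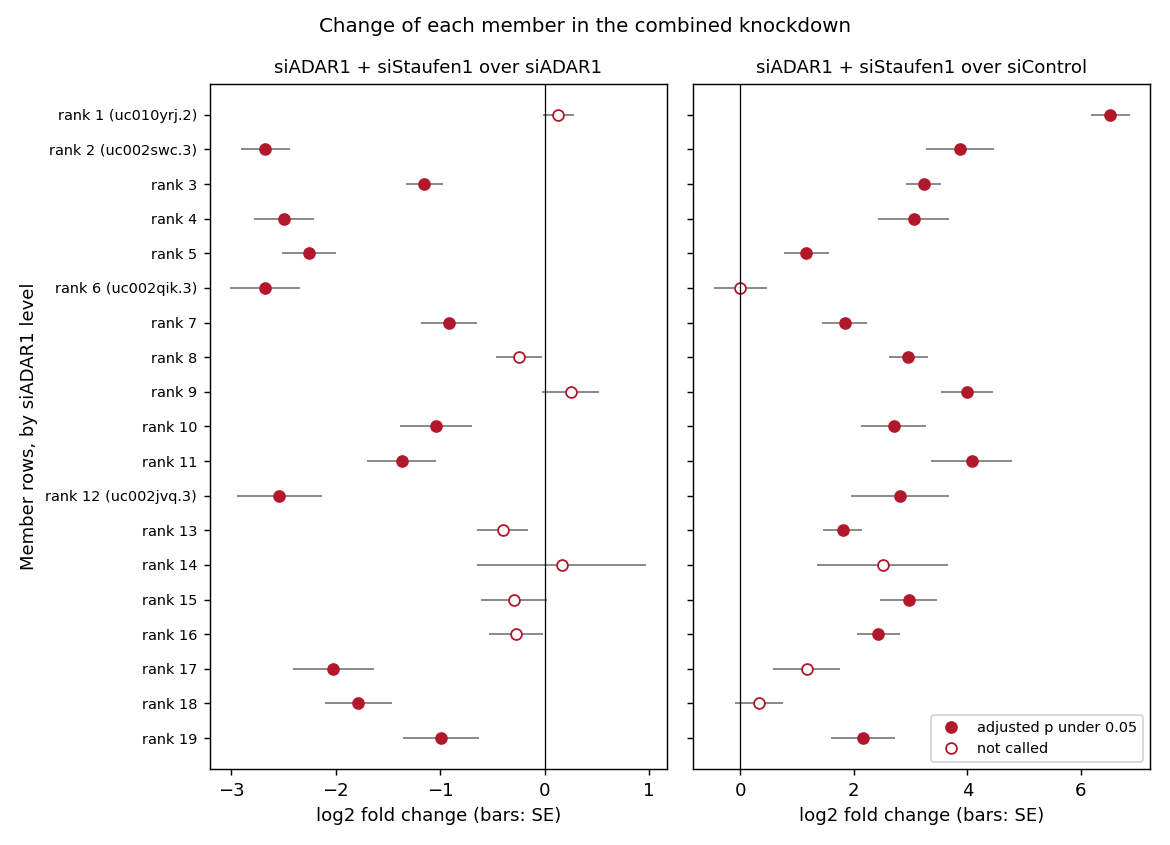
Log2 fold changes of the 19 members in the combined knockdown over siADAR1 (left) and over siControl (right); bars are standard errors, filled points have an adjusted p under 0.05 and open points do not. On the left 12 members are called and all lie at -0.92 or below, and on the right 15 are called, at 1.17 or above.

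Reading both comparisons side by side, which share the combined libraries, 9 members were lower than siADAR1 and still higher than siControl. Another 3 were lower than siADAR1 and not called against siControl, namely ranks 6, 17 and 18. Rank 12, among the 9, and rank 17 passed the filter on low counts only with the siADAR1 libraries, high by the rule. The rule chose members on both siADAR1 and siControl, and the share of tested rows in each joint class was not counted. Singly, 21.5% of the tested rows were called lower than siADAR1 and 28.7% higher than siControl. Rank 17, a row of 1 transcript, had 17 and 10 reads in the combined knockdown, 68 and 56 in siADAR1 and 4 and 5 in siControl. Rank 18, a row of 5 transcripts, had 15 and 17 reads in the combined knockdown, 62 in each siADAR1 library and 10 and 9 in siControl. In both rows the combined libraries lay above both siControl libraries.

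Not called lower than siADAR1 and higher than siControl were 6 members, ranks 1, 8, 9, 13, 15 and 16. The share of tested rows in this joint class was not counted either. Rank 13 had 40 and 49 reads in the combined knockdown, 62 and 70 in siADAR1 and 10 and 9 in siControl. Rank 15 had 30 and 66 reads in the combined knockdown, 53 and 79 in siADAR1 and 3 and 6 in siControl. Ranks 13, 15 and 16 therefore missed the limit of 50 reads in a combined library without a called fall. The count of 4 members that stayed on is thus smaller than the number without a called fall. It also includes rank 3, which was called lower than siADAR1 and kept 44.8% of that level. The log2 fold change of rank 3 was -1.15 (SE 0.17, edgeR adjusted p = 2.33e-04).

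Rows of 1 transcript made up 5 of the 7 members not called lower than siADAR1 and 3 of the 12 called lower, a split noticed after the values were seen. Over all tested rows they made up 25.1% of those not called lower and 18.1% of those called lower. The median number of transcripts was 1 in those 7 members and 2.5 in the 12.

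Rank 14, a row of 1 transcript singled out after its values were seen, had 0 and 134 reads in the combined knockdown, 71 and 58 in siADAR1 and 8 and 9 in siControl. Its combined libraries lay on opposite sides of both other groups. A count of 0 in combined replicate a allows up to 0.122 CPM, taken as 3 reads of that library. No direction is given for this member: against siADAR1 the log2 fold change was 0.16 (SE 0.81) with both libraries, 1.12 without combined replicate a and -8.77 without combined replicate b. The last value rests on 0 reads and depends on the fitted prior count.

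Summed over the 19 members, the level was 30.7 and 38.9 CPM in the combined knockdown, 66.0 and 63.9 CPM in siADAR1 and 5.11 and 4.80 CPM in siControl. Both combined libraries lay between the other groups. The rule chose the members for low siControl and high siADAR1 reads, and the part of that choice in this order was not tested. Without rank 1 the sums were 21.7 and 28.9 CPM in the combined knockdown, 58.5 and 54.1 CPM in siADAR1 and 5.002 and 4.71 CPM in siControl. Without rank 14 they were 30.7 and 34.2 CPM, 63.5 and 62.1 CPM, and 4.67 and 4.40 CPM in the same order of groups. Replicate b was above replicate a in 13 of the 19 members in the combined knockdown and in 6 of 19 in siADAR1, against 49.8% and 51.3% of the tested rows.

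Replicates of a member could differ widely at these depths. In siADAR1 the ratio of replicate b to replicate a in CPM ran from 0.695 to 1.39 over the 19 members. In the combined knockdown it ran from 0.377 to 1.93 over the members other than rank 14. The lowest of these was that of uc002jvq.3, whose combined libraries had 14 and 6 reads.

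The number of rows that meet the rule depends on the scale of the reads. With the same limits on reads scaled to the smallest library total, 13 rows met it, 10 of them members, and 4 of the 13 stayed on. With the reads scaled to the smallest TMM-adjusted library, 6 rows met it, 5 of them members, and 2 stayed on. Leaving out siControl replicate b raised the number of rows that met the rule to 61, of which 24 stayed on, and leaving out siControl replicate a raised it to 34, of which 11 did. Leaving out siADAR1 replicate a gave 33 rows, 4 of which stayed on, and without combined replicate a the number of members on was 7.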

How the data were processed

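The values deposited by the authors are expected counts, that is estimated reads per row, for 6 libraries, each a whole number. The submitters' processing notes name RSEM 1.2.3, edgeR and the build hg19 without their roles; per the labels' protocols, total RNA went into Lexogen's SENSE mRNA kit. The strand setting, like the aligner, is not given in the sources used here, so antisense partners and near-identical rows may share reads. Totals per library were 20291057 to 29508632 reads, which set counting error only. Rows were kept with filterByExpr (10 reads, total of 15), leaving 14711, including all 19 members. Libraries were scaled with TMM, and a mean per group was fitted to all 6 libraries (3 residual degrees of freedom). Each comparison used the two-sided quasi-likelihood test of edgeR, Benjamini-Hochberg over all tested rows, with a threshold of 0.05; the standard error comes from the F statistic. siADAR1 against siControl chose the members and is described without a test. R 4.3.3, edgeR 4.0.16, DESeq2 1.42.0, Python 3.11.15 and matplotlib 3.10.9 were used.

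The members and lists were chosen with earlier results of these data known. The members named by ID were to be the 2 with the highest siADAR1 level and the 2 with the lowest change against siADAR1, or the next where these coincide. Gene lists and cell type markers were not used, since rows carry no symbols. Alternatives were other scalings, no filter, DESeq2, a replicate block, 4 libraries only, other read limits, and each library left out.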

Additional observations from a re-analysis of the deposited data

How the results depend on the processing

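Under the alternatives that keep all replicates of the groups compared, 13 to 16 of the 19 members were higher than siControl. The share of the rows tested was 22.7% to 39%, highest with library totals. The 13 come from only the 4 libraries compared, where ranks 12, 14 and 17 were not tested. Lower than siADAR1 were 9 to 12 members, and 16.8% to 30% of the rows tested, again highest with library totals. Leaving out 1 library at a time, with the lone library of a group assumed to vary like the others, 12 to 15 were higher than siControl, 9 to 12 lower than siADAR1, and 0 to 1 higher than siADAR1. The 1 is rank 14, without combined replicate a. The median log2 fold change against siADAR1 was -1.04, -1.16 under library totals, which moved the median of all tested rows to -0.11 (and to 0.21 against siControl), and -1.44 to -1.03 with a library left out; the end at -1.44 lacked combined replicate b.

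The number of rows meeting the rule and the number staying on moved with the limits. They were 6 and 2 with TMM-scaled reads, 7 and 1 with at most 5 siControl reads, 110 and 47 with at most 20, and 5 and 1 with at least 100 reads. With a library left out they ranged from 19 to 61 and from 4 to 24. Fewer or more rows follow from stricter or looser limits by construction.

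The replicate block gave 15 members higher than siControl, 12 lower than siADAR1 and 0 higher. In the same order, it called 28.7%, 21.7% and 22.2% of the tested rows. Across rows, same-lettered libraries deviated together only weakly (r of 0.0060 to 0.051), so replicate letters were not read as pairs. Of 95 alternative values for the 4 members named by ID, 87 kept direction and call. The change of uc010yrj.2 against siADAR1 ranged from -0.0464 without siADAR1 replicate a to 0.34 without siADAR1 replicate b. The change of uc002qik.3 against siControl, near 0, turned to -0.0284 with DESeq2 size factors and -0.0312 with DESeq2, was 0.18 under library totals, and with a library left out ranged from -0.17 without combined replicate b to 0.14 without combined replicate a. The cause was not tested.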

Other observations

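Rows read at 50 or more in one library and at 0 in the other library of the same group numbered 4 in the combined knockdown, 1 in siADAR1 and 3 in siControl, of 20514 rows. Rank 14 of the switched-on rows is among the 4 of the combined knockdown. Such rows were looked for after the values of rank 14 were seen.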
